A study of Homo sapiens with 3 samples.

Results

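The subject is HMGA2, as a gene and as a chromatin region, in NCI-H226 cells, a line labelled as mesothelioma and null for NF2. It is 1 of 36601 genes in the expression table, and its locus was taken as the 72 peaks, of 215590 in the accessibility table, that lie within 250 kb of the span of its annotated starts. Both were read in the same 8913 cells out of 651860 barcodes, kept with at least 1000 unique molecular identifiers (UMIs), at least 1000 counts in peaks and at most 20% mitochondrial UMIs. The gene was chosen because earlier results of these data had shown it to vary between cells, so its levels are given here as a description.

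The study asked how mesothelioma cells acquire resistance to inhibition of TEAD, the transcription factor partner of YAP and TAZ. Parental NCI-H226 cells and CL3, a line grown as 1 resistant clone from them, each received the TEAD inhibitor GNE7883 or DMSO, and all of these cells share the loss of NF2. CL3 was selected under the drug, which began at 0.25 µM and reached 3 µM through increments between 0.1 and 0.5 µM. Neither dose nor duration of the final challenge is given in the sources used here. All 4 conditions were tagged with hashtag antibodies, pooled and run through the 10x Multiome assay, which reads RNA and open chromatin from the same cell. The table used here carries no hashtag counts, so all cells form 1 pooled sample without replicates, and every comparison below is between classes of cells, not between lines or treatments. Intervals are 95% intervals and cover counting error only.

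HMGA2 encodes a non-histone chromatin protein that binds the minor groove of AT-rich DNA through its AT-hooks and helps other factors assemble on it. It is abundant in the embryo, low in most adult tissues and expressed again in many tumours, often mesenchymal ones. Its transcript is the textbook target of the let-7 microRNAs, which bind repeated sites in its 3′ end through their seed.

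In RefSeq (GRCh38.p14) HMGA2 lies on chr12:65824460-65966291, over 141832 bases. The expression table gives its annotated starts as a span from 65824131 to 65825123. Of the 72 peaks, 35 lie upstream and 37 downstream of the start, and 23 overlap the gene. They are 532 to 1019 bases long, with a median of 885, and held 23 to 1051 counts each over all cells. The nearest peaks analysed lie at -2.62 kb and 6.45 kb from the start. None of the 72 peaks covers the start, so its accessibility could not be read here. RPSAP52, another RefSeq gene, overlaps the HMGA2 start and the peaks from -61.5 to -2.62 kb. On the opposite strand, MSRB3-AS1 lies upstream, and HMGA2-AS1 and HMGA2-AS2 lie within HMGA2. The RefSeq promoters of these 3 noncoding genes run from 250 bases before to 50 after the start. They are printed because RNA from these genes, or accessibility beside them, is described below. Capitals mark matches to the TEAD motif GGAATG, the AP-1 motif TGANTCA and the RUNX motif TGTGGT on either strand, none of which overlap each other here.
MSRB3-AS1, chr12:65642323-65642622, minus strand: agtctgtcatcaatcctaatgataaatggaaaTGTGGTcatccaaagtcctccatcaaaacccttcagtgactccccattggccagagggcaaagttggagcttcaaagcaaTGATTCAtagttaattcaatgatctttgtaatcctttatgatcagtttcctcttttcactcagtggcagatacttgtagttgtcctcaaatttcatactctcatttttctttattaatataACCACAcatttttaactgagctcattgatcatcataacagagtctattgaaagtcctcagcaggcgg
HMGA2-AS1, chr12:65881529-65881828, minus strand: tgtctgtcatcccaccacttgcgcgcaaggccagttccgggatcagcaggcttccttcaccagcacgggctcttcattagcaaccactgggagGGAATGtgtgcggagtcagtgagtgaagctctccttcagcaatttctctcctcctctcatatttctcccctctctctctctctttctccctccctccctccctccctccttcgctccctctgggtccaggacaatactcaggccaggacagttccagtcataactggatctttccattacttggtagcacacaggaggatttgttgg
HMGA2-AS2, chr12:65948658-65948957, minus strand: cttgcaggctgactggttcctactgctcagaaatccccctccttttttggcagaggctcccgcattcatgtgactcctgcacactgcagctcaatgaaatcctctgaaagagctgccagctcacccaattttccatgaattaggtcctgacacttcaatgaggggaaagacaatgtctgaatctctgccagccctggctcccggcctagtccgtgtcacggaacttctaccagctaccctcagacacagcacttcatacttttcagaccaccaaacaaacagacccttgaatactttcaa
The MSRB3-AS1 promoter held 2 RUNX matches and 1 AP-1 match, the HMGA2-AS1 promoter printed held 1 TEAD match, and the HMGA2-AS2 promoter held no match to these letters. HMGA2-AS1 has another RefSeq promoter on chr12:65882276-65882575, which held no match either and overlaps no peak, whereas the one printed overlaps the peak at 57.49 kb. Among all 35116 RefSeq promoters of this length, 14% held the TEAD letters, 7.71% the AP-1 letters and 13.1% the RUNX letters.

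HMGA2 RNA was spread unevenly over the cells. The 8913 cells held 2704 HMGA2 UMIs, or 163 CPM (UMIs of the gene per 1000000 UMIs of the same cells; 157 to 169). No UMI was found in 7313 cells, 1172 cells had 1, 238 had 2, 73 had 3 and 35 had 4. A further 82 cells (0.920%) had at least 5, up to 28 in the highest cell. The 428 cells with at least 2 UMIs, 4.80% of all cells (4.37 to 5.27%), thus held 56.7% of the HMGA2 UMIs, and the 82 cells with at least 5 held 25.8%. Barcodes with 1 to 99 UMIs, which stand for free RNA, held HMGA2 at 61.9 CPM (45.9 to 81.6; 50 UMIs).

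Sequencing depth sets how many cells reach a given count. Cells with 0 HMGA2 UMIs had a median of 1494 UMIs and 4002 peak counts, cells with 1 had 1566.5 and 3968.5, cells with 2 to 4 had 1944 and 4624, and cells with at least 5 had 3143 and 8904.5. Median mitochondrial shares were close, at 13.9%, 13.5%, 13.6% and 15.5% in the same order. The HMGA2 level itself moved little with UMI depth: it was 158, 155, 154 and 173 CPM in 4 equal groups of cells ranked by UMIs. In groups ranked by peak counts it was 152 CPM (139 to 165) in the lowest and 179 CPM (168 to 190) in the highest, with intervals apart. With every cell thinned to 1000 UMIs, 11.9% of cells kept at least 1 HMGA2 UMI and 2.20% at least 2, with 10 in the highest cell. The share that kept at least 2 was 3.18% in the group with the most UMIs and 1.66 to 2.02% in the others. At that equal depth the variance of HMGA2 was 1.70 times its mean. The 544 genes whose mean lay within 1.25-fold of that of HMGA2 had a median of 1.02, and 2 of them, PI3 at 2.07 and CNTN5 at 1.76, were at or above HMGA2.

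The cells with the most HMGA2 UMIs sat mainly in 1 cluster of cells with like open chromatin. Cells were grouped by their peaks on all chromosomes except 12, so neither HMGA2 RNA nor its locus drew the groups. Cluster 2, with 1444 cells, held HMGA2 at 417 CPM (395 to 440), which was 4.02 times the level in the other cells (3.73 to 4.34). Cluster 1, the largest with 4736 cells, held 145 CPM (136 to 154), and cluster 6, with 212 cells, held 111 CPM (86.3 to 140). Clusters 3, 4 and 5, with 908, 869 and 665 cells, held 55.0, 43.0 and 48.0 CPM, with intervals that overlap that of the barcodes with 1 to 99 UMIs. Of the levels next to each other in this order, cluster 2 lay clear of cluster 1, the intervals of clusters 1 and 6 overlapped slightly, cluster 6 lay clear of cluster 3, and the intervals of clusters 3, 5 and 4 overlapped.

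Cluster 2 contained 229 of the 428 cells with at least 2 HMGA2 UMIs (53.5%) and 66 of the 82 cells with at least 5 (80.5%). At least 1 UMI was found in 37.3% of its cells, against 17.2% in cluster 1, 16.0% in cluster 6 and 6.62 to 9.80% in clusters 3 to 5. Median UMIs per cell were 1844.5 in cluster 2, 1331 in cluster 1, 2641.5 in cluster 6 and 1673.5 to 2239 in clusters 3 to 5. The order of the clusters by HMGA2 was thus not their order by UMI depth. Median peak counts were 5397, 2677, 8779 and 5747.5 to 8508 in the same order, so cluster 1 had the fewest. After thinning to 1000 UMIs the shares were 24.0%, 12.2%, 7.55% and 3.46 to 5.62% in the same order. In cluster 2, 905 cells had no HMGA2 UMI.

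**Figure D1:**
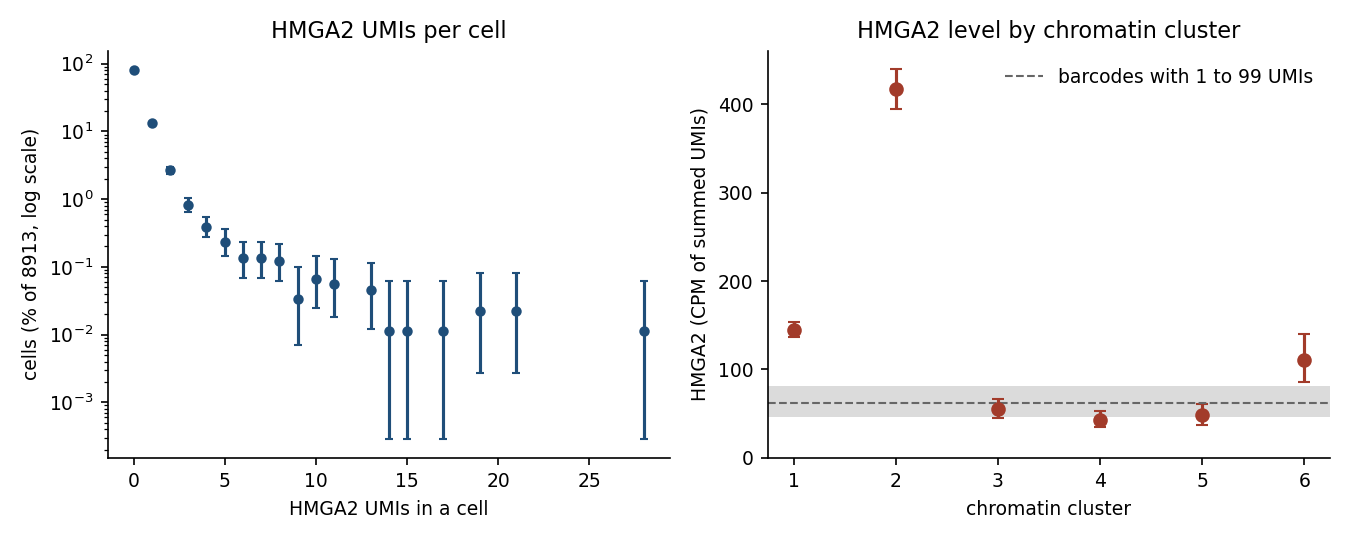
Left, the percent of the 8913 cells (log scale) with each number of HMGA2 UMIs; right, HMGA2 CPM of summed UMIs in each of 6 chromatin clusters drawn without chromosome 12. Bars are 95% intervals, and the dashed line with its band is the level in barcodes with 1 to 99 UMIs; cluster 2 stands at 417 CPM, and clusters 3 to 5 lie at 43.0 to 55.0 CPM.

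The HMGA2 locus held more counts in cells with at least 2 HMGA2 UMIs than in cells with 0. Its 72 peaks together held 437 peak CPM (counts per 1000000 counts in all peaks of the same cells) in the former and 357 in the latter, a ratio of 1.23 (1.13 to 1.33). The ratio over the rest of chromosome 12 was 0.976, and the 27 bins of 5 Mb along it ranged from 0.757 to 1.12. The bin that holds the locus, from 65 to 70 Mb, was at 1.04 (1.00 to 1.07). These bins are wider than the locus, and windows of its size were not compared, so they do not give the range for such windows. Of the 72 peaks, 37 had the 100 counts over both classes needed for a comparison. A peak counted as higher or lower at 1.5-fold or more with an interval that excludes 1. By this rule 6 of the 37 (16.2%) were higher and 3 (8.11%) were lower, against 4.27% higher and 3.54% lower among the 91525 peaks of the whole table that were compared. The median ratio of the 37 was 1.20, against 0.973 for all peaks compared.

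**Figure D2:**
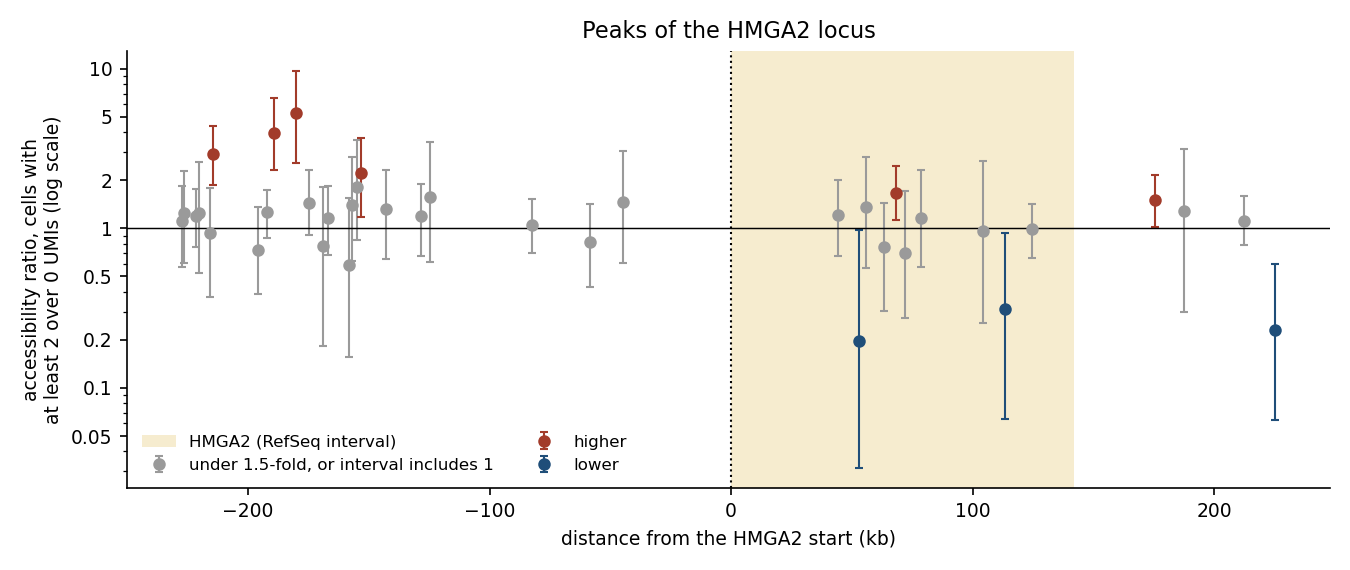
Ratio of accessibility between cells with at least 2 and with 0 HMGA2 UMIs (log scale) for the 37 peaks compared, by distance in kb from the HMGA2 start, with 95% intervals; the shaded span is the gene. The 4 upstream peaks called higher lie between -214.5 and -153.1 kb, and the 3 lower ones lie within the gene or downstream.

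The 4 strongest of the higher peaks lay together upstream, from -214.5 to -153.1 kb, over and beside MSRB3-AS1. The largest ratio belonged to the peak on chr12:65643703-65644565, at -180.0 kb, which overlaps no RefSeq gene and starts 1331 bases beyond the MSRB3-AS1 start. It held 1.84 peak CPM in cells with 0 HMGA2 UMIs, 2.81 in cells with 1, 6.11 in cells with 2 to 4 and 19.3 in cells with at least 5. The last 2 values rest on 13 and 16 counts, and their intervals (2.07 to 12.3 and 8.32 to 38.0) overlap. Between cells with at least 2 and 0 the ratio was 5.32 (2.56 to 9.75), from 29 and 72 counts in 15 and 38 cells. Without the 8% of cells with the most UMIs, a stand-in for doublets, it was at 4.20 (1.56 to 9.76) but under the count minimum, and 4 of the 9 calls were left. Only 3 of the 91525 peaks compared across the genome, this peak included, had a ratio as high, or 0.00328%. With 72 counts in cells with 0, it met the minimum of 100 counts only through cells with at least 2, where it is high. Peaks as sparse as this were left out unless they were high in that class, so this rank is a description only.

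The 3 other upstream peaks also held least in cells without HMGA2 UMIs. The peak on chr12:65634550-65635473, at -189.1 kb within MSRB3-AS1, held 3.56, 7.35, 13.2 and 16.9 peak CPM in cells with 0, 1, 2 to 4 and at least 5 UMIs, with a ratio of 3.99 (2.31 to 6.53), rank 40 of the whole table. Further out, that on chr12:65609182-65610025, at -214.5 kb where LINC02454 and MSRB3-AS1 overlap, held 6.73, 9.22, 20.2 and 18.1, with a ratio of 2.91 (1.87 to 4.36). Nearer HMGA2, that on chr12:65670550-65671461, at -153.1 kb and outside RefSeq genes, held 5.02, 6.25, 8.92 and 16.9, with a ratio of 2.22 (1.19 to 3.68). All 4 were lowest in cells without an HMGA2 UMI and next lowest in cells with 1, although the intervals of neighbouring classes overlap for most of them.

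The other 2 higher peaks differed less. Inside HMGA2, the peak at 68.05 kb, chr12:65891742-65892625, held 12.8, 17.3, 24.0 and 14.5 peak CPM in the 4 classes, with a ratio of 1.67 (1.14 to 2.46). The peak on chr12:65999310-66000188, at 175.6 kb and beyond the 3′ end of HMGA2, held 15.3, 17.5, 23.5 and 21.7, with a ratio of 1.51 (1.02 to 2.15), just inside the threshold. Neither was highest in the cells with the most HMGA2 UMIs.

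In cells with at least 2 HMGA2 UMIs, called HMGA2-rich below, 3 peaks were lower, all downstream of the start. The peak on chr12:66048887-66049749, at 225.2 kb and outside RefSeq genes, held 11.7 peak CPM in cells with 0 UMIs, 10.5 in cells with 1, 2.82 in cells with 2 to 4 and 2.41 in cells with at least 5. Its ratio was 0.232 (0.0626 to 0.601). Within the gene, that on chr12:65876684-65877585, at 53.00 kb where HMGA2 and HMGA2-AS1 overlap, held 5.15, 4.84, 0.939 and 1.20, with a ratio of 0.197 (0.0315 to 0.979) that rests on 3 counts in the HMGA2-rich cells. The peak on chr12:65936860-65937773, at 113.2 kb where HMGA2 and HMGA2-AS2 overlap, held 6.45, 3.28, 2.82 and 0, with a ratio of 0.314 (0.0639 to 0.940) from 6 counts. The 0 in cells with at least 5 UMIs has an upper bound of 8.89 peak CPM, so a difference from the other classes was not detectable at this depth.

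**Figure D3:**
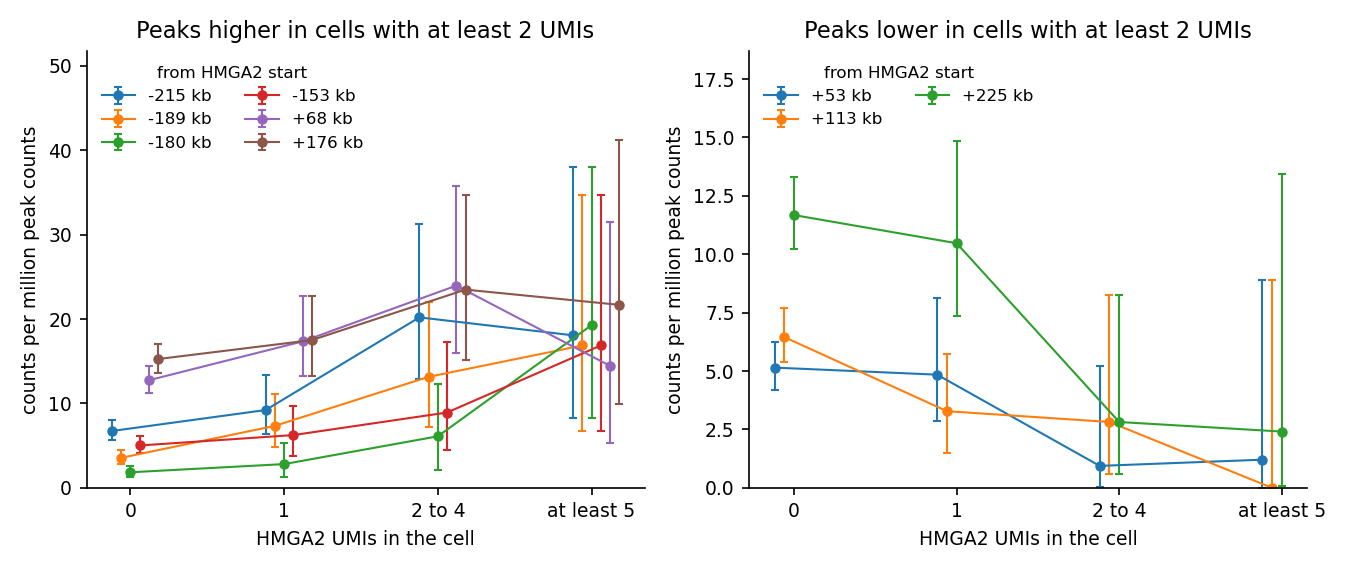
Peak CPM in cells with 0, 1, 2 to 4 and at least 5 HMGA2 UMIs for the 6 peaks that were higher (left) and the 3 that were lower (right) in cells with at least 2, with 95% intervals; labels give the distance from the HMGA2 start. The peak at -180 kb goes from 1.84 to 19.3, and the peak at 225 kb from 11.7 to 2.41.

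The remaining 28 peaks compared showed neither call. They include the 3 peaks with the most counts in the locus, at 212.4 kb (1051 counts, ratio 1.12), at -192.4 kb within MSRB3-AS1 (1031 counts, ratio 1.26) and at 124.7 kb (956 counts, ratio 0.985). The last of these covers the HMGA2-AS2 promoter printed above. The peak at 57.49 kb, over the HMGA2-AS1 promoter printed above, had 86 counts, under the minimum, with 3 in HMGA2-rich cells and 73 in cells with 0. At the edges of the window, the peaks just inside had ratios of 0.652 at -237.1 kb and 1.65 at 250.6 kb, and the peaks just outside had 1.38 at -257.9 kb and 1.05 at 263.5 kb.

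Since most HMGA2-rich cells were in cluster 2, the cells with 0 UMIs were also reweighted to the same mix of clusters, a comparison added after the data were seen. The ratio at -180.0 kb was then 4.66 (1.95 to 10.0), and those at -214.5, -189.1 and 68.05 kb were 2.20, 2.19 and 1.55, all still called higher. The peaks at -153.1 and 175.6 kb lost the call, with 1.77 (0.902 to 3.15) and 1.36 (0.899 to 2.01). The peak at 225.2 kb stayed lower at 0.270 (0.0713 to 0.718), and those at 53.00 and 113.2 kb lost the call at 0.273 and 0.450. This left 4 higher and 1 lower, against a background of 2% and 1.76%. Among cells with at most 10% mitochondrial UMIs, 5 locus peaks could be compared and 0 were called, and the peaks at -153.1, 53.00 and 175.6 kb lay on the other side of 1.

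Within clusters, all 72 peaks together had a ratio of 1.17 (1.05 to 1.31) in cluster 2 and 1.09 (0.890 to 1.32) in cluster 1. In clusters 3, 4, 5 and 6, which held 8 to 12 HMGA2-rich cells each, it was 1.00, 1.00, 0.898 and 1.38, with intervals that include 1. In cluster 2 the 6 higher peaks summed to 111 peak CPM in its 229 cells with at least 2 HMGA2 UMIs and to 58.8 in its 905 cells with 0, a ratio of 1.89 (1.46 to 2.41). The 3 lower peaks summed to 5.84 and 15.7, a ratio of 0.373 (0.141 to 0.946). Within cluster 1 the sums of the 6 gave 1.43 (0.859 to 2.24), which includes 1. The peaks in these sums were chosen on the same cells, so the sums are a description. Over clusters, the -180.0 kb peak ranged from 1.25 to 4.35 peak CPM and was highest in cluster 2, whose interval (2.79 to 6.74) overlapped that of each other cluster.

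UMIs assigned to the antisense genes were few. HMGA2-AS1, an antisense RNA that starts inside HMGA2, was at 38.7 CPM (27.9 to 52.3) in cells with at least 2 HMGA2 UMIs and at 3.31 CPM (2.41 to 4.45) in cells with 0, a ratio of 11.7 (7.47 to 18.2) from 42 and 44 UMIs. In the 82 cells with at least 5 HMGA2 UMIs it reached 79.0 CPM. AC090673.1, whose start lies 228 bases inside RefSeq's HMGA2-AS2, was at 24.9 and 1.96 CPM, a ratio of 12.7 (7.14 to 22.7) from 27 and 26 UMIs. Whether counting used the strand is not stated in the sources used here, so reads of HMGA2 and of these overlapping genes cannot be told apart.

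AC025419.1, which matches MSRB3-AS1 by its identifier and lies outside HMGA2, had 18 UMIs in all cells. Of these, 11 fell in the 428 HMGA2-rich cells and 6 in the 7313 cells with 0, or 10.1 against 0.452 CPM and a ratio of 22.4 (7.60 to 73.9). Its annotated starts span chr12:65558689-65642372. The MSRB3-AS1 promoter printed above, next to the -180.0 kb peak, belongs to the highest of these starts. The UMIs were not assigned to a start, so they cannot be tied to that promoter. All 3 noncoding genes were under the minimum of 100 UMIs over both classes and carry no call.

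Of the 25 genes within 1 Mb, the noncoding ones above included, 5 had enough UMIs to be compared and 4 had no UMI. MSRB3, the gene of a methionine sulfoxide reductase that starts at -545.5 kb, was at 74.7 CPM in HMGA2-rich cells, 41.7 CPM in cells with 0 and 58.4 CPM in cells with 1. Its ratio was 1.79 (1.40 to 2.27), and 1.53 after reweighting by cluster. The other 4 were near 1: LEMD3, an inner nuclear membrane protein, at 1.05, LLPH at 1.10, TMBIM4 at 0.918 and GRIP1, a scaffold of glutamate receptors, at 1.08. HELB, a DNA helicase gene, had 8 and 108 UMIs, too few for a comparison. Of the 5 compared, MSRB3 alone passed 1.5-fold with an interval above 1, as did 8.15% of the 7078 genes compared over the whole table.

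**Figure D4:**
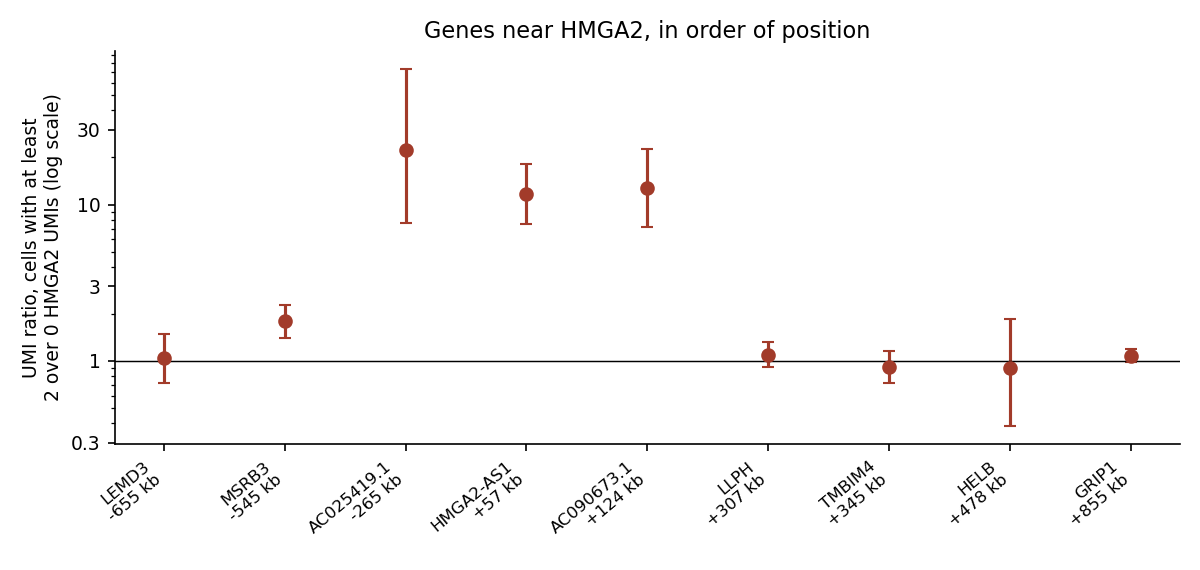
Ratio of CPM between cells with at least 2 and with 0 HMGA2 UMIs (log scale) for genes within 1 Mb with at least 15 UMIs and a UMI in both classes, in order of position (labels give kb from the HMGA2 start to the lowest annotated start), with 95% intervals. The 3 noncoding genes around HMGA2 have ratios of 11.7 to 22.4, MSRB3 has 1.79, and LEMD3, LLPH, TMBIM4 and GRIP1 have 0.918 to 1.10.

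Across the transcriptome, most genes differed by less than 2-fold. Genes were compared with at least 100 UMIs over both classes and at least 20 CPM in the higher. Of 7078 such genes, 113 (1.6%) were at least 2-fold higher in HMGA2-rich cells and 63 (0.89%) at least 2-fold lower. Over all cells, 47 of the 113 and 7 of the 63 were under 20 CPM. Those genes were compared only through the class where they are high, so the 2 counts cannot be set against each other. Scaling by trimmed mean of M values (TMM) in place of total UMIs moved every log2 ratio down by 0.14 and gave 72 higher and 98 lower. With cells reweighted by cluster, 39 of the 113 and 21 of the 63 were still at least 2-fold apart, and 48 genes were higher and 27 lower in all. At the looser limit of 1.5-fold, 103 of the 113 and 41 of the 63 were still apart. Among cells with at most 10% mitochondrial UMIs, where 3598 genes could be compared, the balance was the other way, with 53 higher and 155 lower, and these included 10 of the 113 and 6 of the 63.

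The 2 genes with the highest ratios were IL1RAPL1 and SAMD3. IL1RAPL1, an adhesion receptor of synapses in the interleukin-1 receptor family, was at 22.6 CPM in cells with 0 HMGA2 UMIs, 66.5 CPM in cells with 1, 161 CPM in HMGA2-rich cells and 174 CPM in those with at least 5. Its ratio was 7.14 (5.89 to 8.63), and 4.35 after reweighting by cluster. SAMD3 was at 31.3, 62.5, 209 and 355 CPM in the same order, with a ratio of 6.69 (5.67 to 7.89), and 3.76 after reweighting. Both were highest in cluster 2, where IL1RAPL1 was at 96.2 CPM and SAMD3 at 121 CPM. In the other clusters IL1RAPL1 ranged from 9.21 to 40.2 CPM and SAMD3 from 13.7 to 45.0 CPM. Both were thus higher with 1 HMGA2 UMI than with 0, and higher again in HMGA2-rich cells. The cells with at least 5 are part of the HMGA2-rich cells. For IL1RAPL1 their ratio to cells with 0 was 7.72 (5.65 to 10.4), an interval that overlaps that of the 7.14. In cluster 2 both genes had their highest level, as HMGA2 did.

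The next 8 genes by ratio had ratios of 3.43 to 4.94. PLAT, tissue plasminogen activator, was at 38.7 against 8.66 CPM (ratio 4.47). BMPER, a secreted protein that binds bone morphogenetic proteins, was at 43.3 against 9.79 CPM (4.42). ITGA2, the alpha chain of a collagen-binding integrin, was at 70.0 against 16.6 CPM (4.23). MME, the membrane peptidase neprilysin, was at 83.9 against 23.1 CPM (3.64), and PHEX, an endopeptidase that acts in phosphate balance, was at 24.0 against 5.88 CPM (4.08). The remaining 3 were the noncoding AC078923.1 (36.9 against 7.46 CPM; 4.94), CFAP299 (64.5 against 16.6 CPM; 3.89) and the tetraspanin TSPAN5 (59.0 against 17.2 CPM; 3.43). Among cells with at most 10% mitochondrial UMIs the ratio of TSPAN5 was 0.822 (0.0961 to 3.17) and that of BMPER 1.46.

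At the other end, the 10 genes with the lowest ratios had few UMIs in HMGA2-rich cells. ADGRL3, an adhesion receptor of the latrophilin family, was at 16.6 CPM in HMGA2-rich cells, 62.9 CPM in cells with 1 and 70.4 CPM in cells with 0, a ratio of 0.236 (0.139 to 0.375), and 0.478 after reweighting. Within cluster 2 alone its ratio was 0.691 (0.255 to 1.62), which includes 1. SLC48A1, a heme transporter, rests on 5 and 268 UMIs, with a ratio of 0.228 (0.0735 to 0.539). All 10 genes met the minimum of 20 CPM only through cells with 0, and SLC48A1 was under it over all cells, at 18.4 CPM. WNT5A, a Wnt ligand, was at 7.37 against 25.0 CPM, and the cadherin CDH6 at 8.30 against 32.8 CPM. KCNH5, a potassium channel, had a ratio of 0.296. The secreted protein CHI3L1 was at 17.5 against 55.1 CPM and the steroid dehydrogenase HSD3B1 at 16.6 against 47.3 CPM. GRIK2, EPDR1 and QPRT had ratios of 0.252, 0.290 and 0.350. Within cluster 2, KCNH5 at 0.514 and QPRT at 0.713 also no longer reached 2-fold, nor did CDH6 at 0.543 among cells with at most 10% mitochondrial UMIs.

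**Figure D5:**
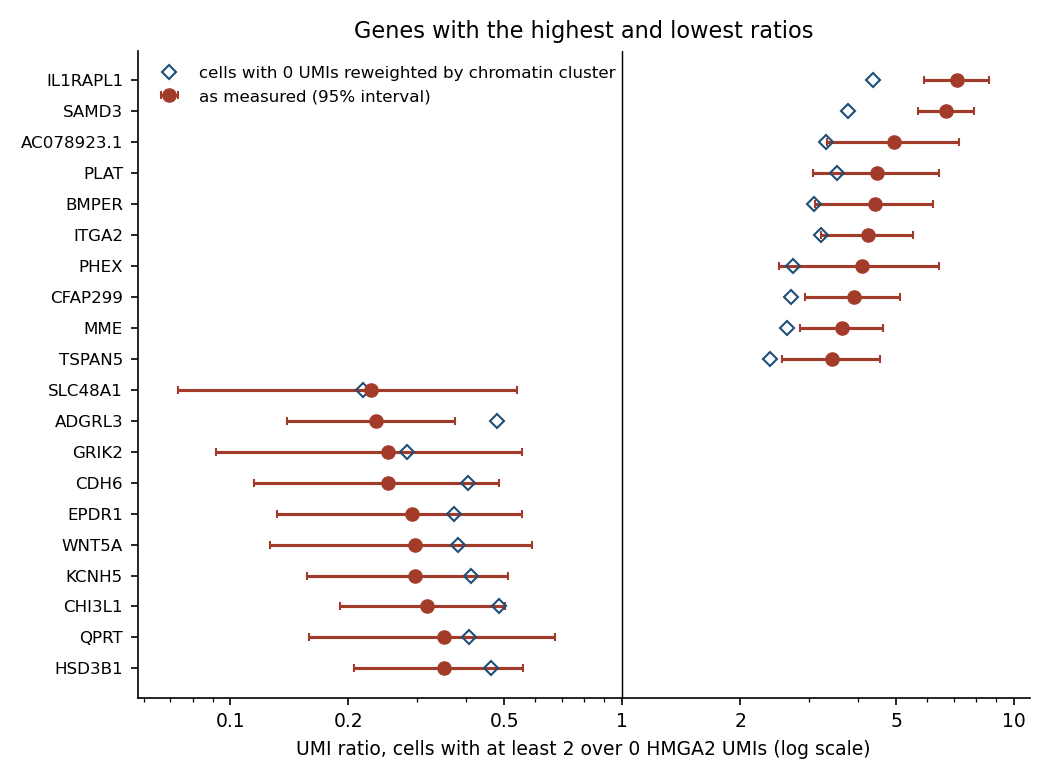
Ratio of CPM between cells with at least 2 and with 0 HMGA2 UMIs (log scale) for the 10 compared genes of highest and the 10 of lowest ratio, as measured with 95% intervals (circles) and with cells with 0 reweighted by chromatin cluster (diamonds). IL1RAPL1 goes from 7.14 to 4.35 with reweighting and ADGRL3 from 0.236 to 0.478.

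Over single cells, each thinned to 1000 UMIs, the genes that went with HMGA2 were in part the same. Pearson's r of log counts was computed against 5028 genes with at least 500 UMIs, over 8913 cells that share 1 library. It was highest for IL1RAPL1 (0.127), SAMD3 (0.122), MIR100HG (0.109), EXT1 (0.104) and DCBLD2 (0.101), and the median gene had 0.0017. PAPPA, SMURF2, KCNMA1, CDK17 and THSD4 followed at 0.0860 to 0.0820. These values are weak and are given as an order only.

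In CPM, EXT1, a polymerase of heparan sulfate, was at 1026 in HMGA2-rich cells and 461 in cells with 0 (ratio 2.22). DCBLD2, a membrane protein, was at 639 against 237 CPM (2.70). SMURF2, a ubiquitin ligase of TGF-beta signalling, had a ratio of 2.24, the kinase gene CDK17 2.54, the potassium channel gene KCNMA1 1.94, PAPPA, a protease of insulin-like growth factor binding proteins, 1.86, and THSD4 1.72. The lowest r belonged to SLPI, a secreted protease inhibitor, at -0.104, with 1665 CPM in HMGA2-rich cells and 3037 in cells with 0 (0.548).

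MIR100HG, the noncoding host of miR-100 and let-7a-2, was at 535 CPM in HMGA2-rich cells and 193 CPM in cells with 0, a ratio of 2.77 (2.53 to 3.03), and 1.91 after reweighting. It was highest in cluster 2, at 435 CPM, and between 114 and 208 CPM elsewhere. Its place among the genes most like HMGA2 prompted a look at the let-7 hosts, chosen after these values were seen. The hairpin of let-7a-2 lies within MIR100HG on chr11:122146522-122146593, minus strand. The 9 mature let-7 and miR-98 sequences of RefSeq share 1 seed, bases 2 to 8, in capitals here, by which they pair with HMGA2 RNA, and 4 of them are printed to show that the members differ only outside it.
hsa-let-7a-5p: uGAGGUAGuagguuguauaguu
hsa-let-7b-5p: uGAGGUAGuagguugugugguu
hsa-let-7f-5p: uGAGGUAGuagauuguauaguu
hsa-let-7g-5p: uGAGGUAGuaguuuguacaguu
Of 12 let-7 family hairpins, 7 genes that overlap 1 or more had a row in the table, and 5 had enough UMIs. MIR100HG, which prompted this look, was the only one of these 5 past 1.5-fold with an interval above 1. Of the 7078 genes compared over the whole table, 8.15% met that rule. HUWE1, over let-7f-2 and miR-98, had 1.18 (1.00 to 1.37), MIRLET7BHG, over let-7a-3 and let-7b, had 0.964 (0.655 to 1.37), SPACA6, over let-7e, had 0.925 (0.596 to 1.38), and WDR82, over let-7g, had 0.971 (0.724 to 1.28). The assay does not measure mature microRNAs.

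For gene lists the peak rule was used (1.5-fold, interval without 1), which 577 (8.15%) and 249 (3.52%) of the 7078 genes met. All genes had a median log2 ratio of 0.07. With cells reweighted by cluster, 336 genes met the rule as higher and 117 as lower, with a median of 0.04. No such count over all genes was made with TMM, so the TMM counts below have no background. Of 9 compared genes of the HMGA and let-7 list, none was higher or lower, with a median of 0.12, or -0.02 with TMM, a count too small to set against those shares. HMGA1, the paralog of HMGA2, was at 389 against 313 CPM (1.24; 1.12 to 1.37). IGF2BP2, an RNA-binding protein whose gene HMGA2 is known to activate, was at 516 against 390 CPM (1.32; 1.21 to 1.44). IGF1R, a growth factor receptor, was at 225 against 337 CPM (0.668; 0.585 to 0.760), and counted as lower with TMM at 0.605. LIN28A and LIN28B, which block let-7 maturation, had 2 UMIs each.

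The HMGA2-linked list, which holds cell cycle and invasion genes tied to HMGA2 in the literature, had 6 compared genes and none higher or lower, with a median of 0.03, or -0.11 with TMM. Their ratios were 0.747 for the cyclin gene CCNA2, 0.996 for CCNB2, 1.27 for RB1, 1.09 for CDKN2A, 1.05 for CDKN1A and 0.865 for TWIST1. Of 11 TGF-beta signalling genes, 1 was higher, the ligand gene TGFB1 at 75.6 against 49.7 CPM (1.52), which was not past 1.5-fold with TMM or with reweighting by cluster.

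Of the lists that the resistance study turns on, that of MAPK output, genes switched on by ERK, had 4 of 8 compared members higher and none lower, with a median of 0.51. PHLDA1 was at 143 against 49.3 CPM (2.90; 2.41 to 3.45), FOSL1, an AP-1 subunit, at 134 against 60.2 CPM (2.22; 1.85 to 2.65), SPRED1, an inhibitor of RAS signalling, at 54.4 against 31.3 CPM (1.74) and SPRED2 at 28.6 against 19.0 CPM (1.51; 1.00 to 2.19). SPRED2 was under 20 CPM in cells with 0, so it was compared only through the class where it is high. Over all cells 1 of the 8 was under 20 CPM. With reweighting by cluster 3 of the 8 were higher and the median was 0.24, and with TMM 3 were higher. Of 14 RAS-ERK pathway genes, NRG1, a ligand of ERBB receptors, was at 92.2 against 36.8 CPM (2.51) and the kinase gene MAP2K1 at 81.1 against 47.6 CPM (1.70), and none was lower, although with TMM 1 gene, MAP2K2, was. With reweighting 3 of the 14 were higher. Of 21 YAP and TEAD targets, 2 were higher, the receptor gene AXL at 164 against 107 CPM (1.53) and NT5E at 57.1 against 27.7 CPM (2.06). With TMM 1 of them was higher, and with reweighting by cluster 0 were. CCN1, a textbook YAP target, had 0.914 (0.807 to 1.03).

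Of 9 AP-1 and RUNX genes, 2 were higher, FOSL1 and RUNX2, the latter at 62.7 against 33.7 CPM (1.86), and FOSL1 alone after reweighting. Of 12 mesenchymal transition genes, 3 were higher: the intermediate filament gene VIM at 848 against 555 CPM (1.53), the repressor gene ZEB2 at 54.4 against 29.2 CPM (1.86) and the integrin gene ITGA5 at 72.8 against 46.7 CPM (1.56), and 1 after reweighting or with TMM. Of 16 interferon response genes, 8 were higher, from DDX58 at 1.58 to XAF1 at 2.19, with a median of 0.59. After reweighting by cluster 1 of the 16 was higher and 2 were lower, with a median of 0.07. No S phase gene of 14 and 1 G2/M gene of 21, NUF2 at 1.83, was higher.

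Markers of cell types were read in the same classes. Of 11 mesothelial markers, none was higher and 2 were lower in HMGA2-rich cells, CALB2 (calretinin) at 459 against 818 CPM (0.561) and UPK3B at 150 against 289 CPM (0.519), and 4 were lower with TMM. After reweighting by cluster 1 was lower, UPK3B at 0.638, and CALB2 was at 0.670. The 13 mesothelial markers summed to 7615 CPM in HMGA2-rich cells, 10440 CPM in cells with 0 and 12698 CPM in barcodes with 1 to 99 UMIs, so free RNA held them at a higher level than either class. Immune markers summed to 15.7 and 8.59 CPM, with 3 of 10 at 0, and endothelial markers to 68.2 and 57.6 CPM, with 1 of 8 at 0. Fibroblast and smooth muscle markers summed to 277 and 270 CPM, with 1 of 10 at 0, and epithelial and squamous markers to 1481 and 1892 CPM, with 4 of 12 at 0. The part of these markers in the HMGA2 classes was not tested. Over the whole table, 54494965 UMIs and 117898281 peak counts were recorded, of which 30.4% and 41.1% were in the 8913 cells, at medians of 1524 UMIs and 4034 peak counts per cell.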

How the data were processed

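The expression and accessibility data came from 1 pooled 10x Multiome sample and are deposited as 1 table of counts, UMIs per gene and accessibility counts per peak, per the file headers. Cell Ranger ARC 2.0.0, Cell Ranger 2.0.0, ArchR 1.0.3, MACS2 and GRCh38.p10 are named in the submitters' processing notes; their roles, peak calling, strand use and intron counting are not given in the sources used here. Of the counts in peaks, 87.9% were even, so 2 counts were taken as 1 event in intervals. Barcodes needed 1000 or more UMIs, 1000 or more peak counts and no more than 20% mitochondrial UMIs to be kept. Doublets were not removed, and results were also computed without the 8% of cells highest in UMIs. Cells with no map to a line or treatment were never split by condition, and without replicates no test was made.

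UMIs or peak counts were summed over cells with at least 2 and with 0 HMGA2 UMIs and scaled to each sum's total, HMGA2 left out of it for genes. Ratios carry exact conditional binomial intervals, levels exact Poisson intervals and shares exact Clopper-Pearson intervals. Clusters came from TF-IDF, 30 singular vectors, 15 neighbours and Leiden at resolution 0.5 on peaks outside chromosome 12. Named were the 10 genes of highest and of lowest ratio, the 10 of highest r, genes within 1 Mb, list members apart or with a known role for HMGA2, the locus peaks apart and the 3 of highest count. The members and lists were chosen with earlier results of these data known. The gene starts of RefSeq GRCh38.p14 were checked against the table: 16158 of 17575 symbols (91.9%) started within 50 bases. Python 3.11.15, numpy 2.4.6, scipy 1.17.1, pandas 2.3.3, scikit-learn 1.9.0, igraph 0.11.9 and leidenalg 0.10.2 were used. The ratios and calls were run on simulated sums with known changes and counting error only. This does not check how often the intervals hold, nor the spread between cells.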

Additional observations from a re-analysis of the deposited data

How the results depend on the processing

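No paired analysis was possible because there is 1 pooled sample, no replicate and no test. The share of cells with at least 2 HMGA2 UMIs, 4.80% as reported, was 8.54% with minimums of 2000, 2.73% with 500, 4.27% at most 10% mitochondrial UMIs, 4.10% without the 8% of cells with the most UMIs and 2.20% after thinning. The ratio of HMGA2 in its highest cluster to the other cells, 4.02, was 6.57, 3.13 and 3.44 with minimums of 2000, with 500 and without the 8% of cells, 4.86 at Leiden resolution 1.0 and 3.56 with chromosome 12 peaks included; at most 10% mitochondrial UMIs left 1 cluster and no value.

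Of the 9 locus peaks called, the count was 4 with minimums of 2000, 0 at most 10% mitochondrial UMIs (5 peaks compared), 4 without the 8% of cells with the most UMIs, 5 after thinning, 14 with at least 20 counts and 2 within 100 kb. Alternatives added after seeing the data gave 5 for cells with at least 5 UMIs, 5 with reweighting by cluster and 1 within cluster 2, where 10 peaks could be compared and the peak at -214.5 kb was called (2.41; 1.31 to 4.22). There the peak at -180.0 kb was at 5.70 (2.15 to 20.1), under the count minimum. The 176 genes at least 2-fold apart became 22 with at least 1 UMI as the class, 478 with at least 3, 515 after thinning and 2475 with at least 10 UMIs and no CPM minimum. The added alternatives gave 962 for at least 5 UMIs, 75 with reweighting and 39 within cluster 2. At most 10% mitochondrial UMIs turned the direction of the peaks at -153.1 kb (0), 53.00 kb (1.28) and 175.6 kb (0.882) and of TSPAN5 (0.822); the cause was not tested. The counts per class limit what these smaller subsets can show.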

Other observations

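These values were singled out after they were seen and belong to no comparison above. Among the 35 locus peaks with too few counts to be compared, 5 had an interval above 1. The peak at -2.62 kb, within RPSAP52, is the nearest analysed upstream of the HMGA2 start. It had 12 counts in cells with at least 2 HMGA2 UMIs and 28 in cells with 0 (ratio 5.66; 1.78 to 15.7). The peak at -5.10 kb, also within RPSAP52, had 14 and 66 (2.80; 1.05 to 6.44), and the peak at -186.1 kb within MSRB3-AS1 had 7 and 25 (3.70; 1.03 to 14.5). Inside HMGA2, the peak at 69.17 kb had 24 and 64 (4.95; 2.32 to 9.87) and the peak at 120.7 kb had 10 and 30 (4.40; 1.25 to 12.7). The peak at 69.17 kb lies next to that at 68.05 kb, which was called higher.

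A peak on chr6:44580680-44581536, 130255 bases from CDC5L, stood just above the -180.0 kb peak in the whole table (5.39; 2.56 to 9.75). With 71 counts in cells with 0 and 29 in cells with at least 2, it too met the minimum of 100 only through the latter. At Leiden resolution 1.0, 1 cluster of 591 cells held HMGA2 at 580 CPM (543 to 619) and 57 of the 82 cells with at least 5 UMIs (69.5%).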
